A study of Mus musculus with 17 samples.

Results

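The collagen chain genes are the genes whose symbol consists of Col, a type number, a and a chain number. A gene was kept where at least 1 of its probes had a detection p-value below 0.05 on at least 2 arrays, which left 37 of the 44 collagen symbols on the array, among 17166 detected genes in all. They comprised 11 of 11 fibrillar chains, 6 of 6 chains of the basement membrane collagen (type IV), 4 of 6 chains of the beaded filament collagen (type VI) and 16 of 21 chains of other types. RNA came from epididymal fat, the fat pad beside the epididymis, and was hybridised to 17 Illumina bead arrays. All mice were of the WBB6F1 hybrid background (WB crossed with C57Bl/6) and had been on their diet for 12 weeks before the tissue was taken after a 5 h fast. There were 3 genotypes on 2 diets, one supplying 60% of its calories as fat (HFD) and one labelled LFD, given as chow holding 6% fat. The wild-type genotype was Cpa3+/+, with 2 arrays on HFD and 3 on LFD. Cpa3Cre/+ mice carry Cre in 1 copy of the mast cell protease gene Cpa3 and are known to lack mast cells, because Cre expressed from that locus is toxic to them. KitW/Wv mice carry a pair of different mutant alleles of the receptor kinase gene Kit in every cell of the body, so that besides mast cells other blood cells, pigment cells and germ cells are affected. Both of these genotypes had 3 arrays on each diet. The labels number the samples and do not tell whether they come from separate mice. The p-values then reflect only how these samples vary, which may be technical.

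Collagens are the main structural proteins of the extracellular matrix, and each molecule winds several chains into a helix. Fibrillar collagens (types I, II, III, V, XI, XXIV and XXVII) build the load-bearing fibrils, type IV forms the sheet on which endothelial cells and adipocytes rest, and type VI forms beaded filaments close to the cell surface. The remaining types include network formers (VIII), fibril-associated chains (IX, XII, XIV, XVI, XX), basement membrane zone collagens with cleavable ends (XV, XVIII) and transmembrane collagens (XVII, XXIII, XXV). In fat, most collagen is made by stromal cells, adipocytes also make type IV and type VI chains, and type VI is the collagen best known for changing in obese fat. Values below are log2 intensities after normalization, 1 probe per gene, and levels of different genes are not set against each other because probes differ in brightness. A gene passed the test where its adjusted p was below 0.05 in the limma fit over all 17166 genes.

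RefSeq promoter windows (GRCm38.p6) were at hand for 30 of the 37 genes and for 7 of the 9 that passed the test in any comparison. The 250 bases before the annotated start are shown, 5′ to 3′ in the direction of the gene, for 5 of those that rose together on HFD in Cpa3Cre/+ mice, so that their sequences can be compared. The windows are those of Col1a2 (chr6:4505368-4505617, plus strand), Col3a1 (chr1:45311288-45311537, plus strand), Col6a1 (chr10:76726045-76726294, minus strand), Col6a2 (chr10:76623631-76623880, minus strand, the farther upstream of its 2 annotated starts) and Col8a1 (chr16:57754738-57754987, minus strand). Capitals mark matches, on either strand, to the CCAAT box (spelled as its name), the TATA box with the letters TATAAA, or the GC box with the letters GGGCGG, and no 2 of these matches overlap.
Col1a2: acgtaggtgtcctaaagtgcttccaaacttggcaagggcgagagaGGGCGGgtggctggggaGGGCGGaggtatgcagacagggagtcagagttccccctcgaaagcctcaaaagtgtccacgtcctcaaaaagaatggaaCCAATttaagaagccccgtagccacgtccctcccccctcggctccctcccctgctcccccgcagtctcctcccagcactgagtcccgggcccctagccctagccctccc
Col3a1: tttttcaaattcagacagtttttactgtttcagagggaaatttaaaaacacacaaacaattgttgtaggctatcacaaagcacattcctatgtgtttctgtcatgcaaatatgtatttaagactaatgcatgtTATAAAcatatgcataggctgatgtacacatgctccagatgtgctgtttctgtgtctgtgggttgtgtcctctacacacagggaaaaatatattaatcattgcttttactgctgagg
Col6a1: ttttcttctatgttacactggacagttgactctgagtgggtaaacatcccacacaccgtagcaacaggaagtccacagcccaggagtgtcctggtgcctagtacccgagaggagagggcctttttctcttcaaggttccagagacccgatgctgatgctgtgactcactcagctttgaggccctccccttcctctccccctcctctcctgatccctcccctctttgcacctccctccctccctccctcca
Col6a2: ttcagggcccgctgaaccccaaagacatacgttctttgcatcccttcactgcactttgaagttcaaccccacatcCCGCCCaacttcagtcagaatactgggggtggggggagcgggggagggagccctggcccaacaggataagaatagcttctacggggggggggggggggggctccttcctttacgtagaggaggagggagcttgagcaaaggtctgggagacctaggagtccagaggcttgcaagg
Col8a1: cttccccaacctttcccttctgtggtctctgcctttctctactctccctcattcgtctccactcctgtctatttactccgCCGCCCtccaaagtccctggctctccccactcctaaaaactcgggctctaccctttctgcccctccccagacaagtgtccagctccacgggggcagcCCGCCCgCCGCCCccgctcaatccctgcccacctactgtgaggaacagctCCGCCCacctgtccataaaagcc

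The 5 windows differed in all 3 motifs. Counting back from the start, with -1 for the base before it, Col1a2 had CCAAT at -109 and 2 GC boxes (-205 and -188), Col3a1 had TATAAA at -117, Col8a1 had 4 GC boxes, Col6a2 had 1, and Col6a1 had none of the 3 motifs. The window of the other annotated start of Col6a2, not shown, held 3 GC boxes. Also not shown were the windows of Col6a3, with none of the 3 motifs, and Col16a1, with 1 CCAAT and 1 GC box. Over all 32851 windows, 33.8% held CCAAT, 12.4% held TATAAA and 32.7% held a GC box on either strand. Of the 33 windows of the collagen genes, 12 held CCAAT, 3 held TATAAA and 20 held a GC box. Several collagen genes are neighbours on their chromosome. Col3a1 lies next to Col5a2 and Col4a3 next to Col4a4 on chromosome 1, Col6a1 next to Col6a2 on chromosome 10, Col4a1 next to Col4a2 on chromosome 8 and Col4a5 next to Col4a6 on chromosome X. The annotated starts of Col4a1 and Col4a2, which are read in opposite directions, lie 21 bases apart, and the transcribed regions overlap between them.

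Of the 37 genes, 21 were detected on all 17 arrays and 16 on 2 to 16 arrays. The latter had mean log2 intensities of 4.25 to 5.24, close to background. Just inside the limit was Col24a1 with detection on 2 arrays. Just outside it were Col9a3, Col19a1 and Col22a1 with 1 array each, and Col6a4, Col6a6, Col10a1 and Col13a1 had none. Within a group, pairs of arrays had r of 0.94 to 0.99 over all genes, their median deposited intensity was 98.6 to 107, and 46.9% to 51.7% of probes were detected. The fat cell genes Adipoq (log2 13.58 to 14.02), Plin1 (9.56 to 10.91) and Fabp4 (9.82 to 11.14) were detected on all arrays. Cpa3 read 7.32 to 8.54 in Cpa3+/+ mice and 4.09 to 5.21 in the other genotypes. Kit itself read 7.09 to 8.77 in Cpa3+/+ and 6.76 to 7.72 in the others, and as the mutant alleles of KitW/Wv can still be transcribed, this does not check their labels. In bulk tissue, fewer cells of a type and less RNA per cell cannot be told apart.

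**Figure D1:**
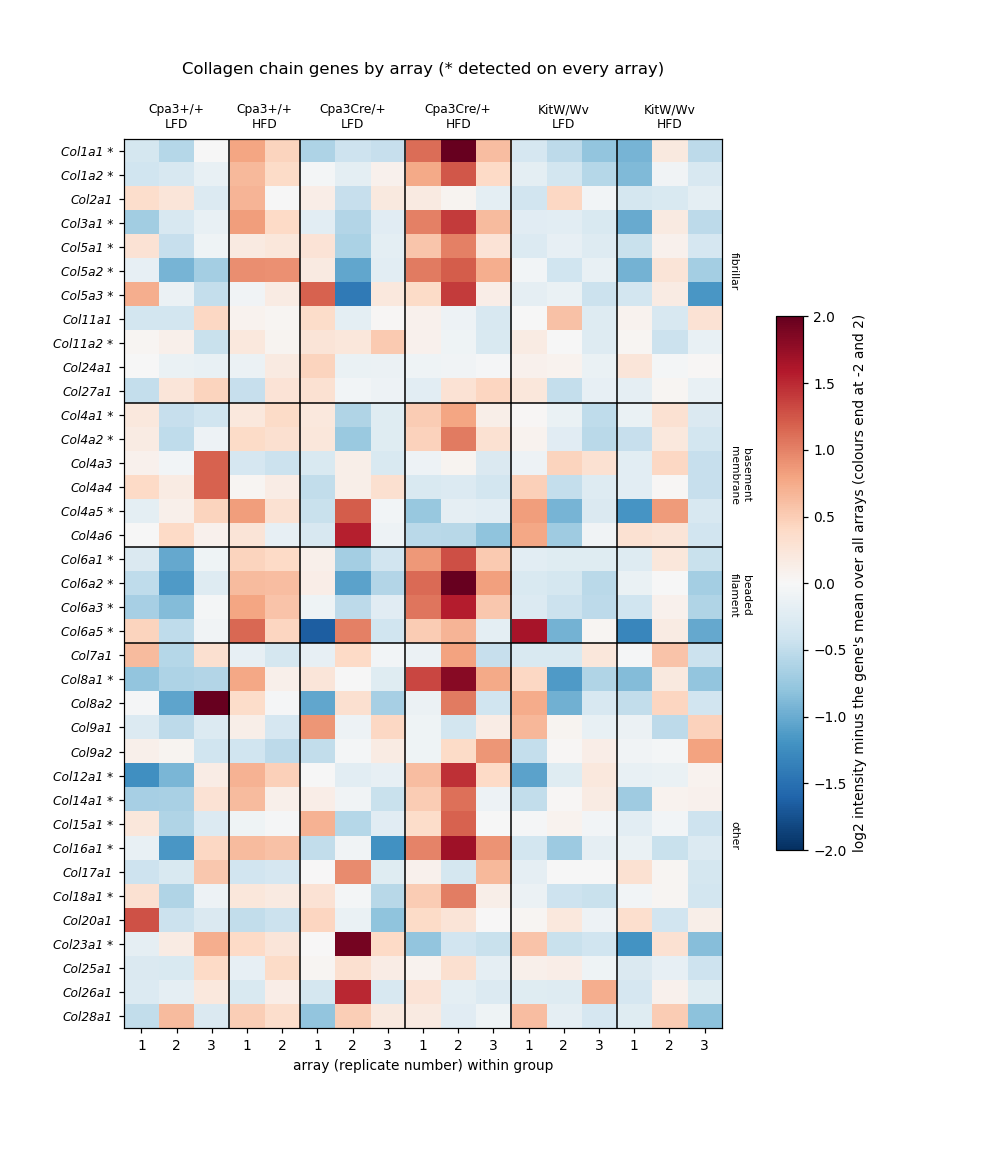
Deviation of each of the 37 collagen chain genes from its own mean over the 17 arrays (colour, log2 scale), with genes in rows by class and arrays in columns by group. Cpa3Cre/+ HFD array 2 is the highest array for 18 of the 37 genes and for 17 of the 21 detected on every array. It is also the highest for all 9 that passed the test, whose mean deviation is 0.49 to 1.65 on the HFD arrays of Cpa3+/+ and Cpa3Cre/+. All 9 passed in comparisons that use the Cpa3Cre/+ HFD arrays, so high values there follow from the choice.

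On HFD 4 fibrillar, 3 type VI and 2 other collagen genes rose in Cpa3Cre/+ mice, 1 fibrillar and 1 type VI gene rose in Cpa3+/+ mice, and no collagen gene passed the test for diet in KitW/Wv mice. In Cpa3+/+ mice 2 of the 37 genes rose and 0 fell (Col5a2 and Col6a3), a share near the 3.44% of all genes that rose. In Cpa3Cre/+ mice 9 rose and 0 fell (Col1a1, Col1a2, Col3a1, Col5a2, Col6a1, Col6a2, Col6a3, Col8a1 and Col16a1), where 5.88% of all genes rose. In KitW/Wv mice 0 of 37 passed in either direction, where 0.00583% of all genes did (1 of 17166). There 0 of the 37 had an unadjusted p below 0.05, where 583 of 17166 genes did. The median difference of the 37 genes, HFD minus LFD, was 0.25 in Cpa3+/+, 0.55 in Cpa3Cre/+ and -0.04 in KitW/Wv, beside medians of -0.02, -0.02 and 0.00 over all genes.

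Separation of the diet groups without regard to the threshold went in both directions. In Cpa3+/+ mice all HFD arrays lay above all LFD arrays in 11 of the 37 genes, where 17.6% of all genes did so. In Cpa3Cre/+ mice the count was also 11, where 12.6% of all genes did so. Both counts were made of the same 11 genes, from arrays that the comparisons do not share (100% of each list), namely the 9 above with Col4a2 and Col12a1. The overlap of the 2 lists over all genes was not counted, so this share has no background value beside it. In KitW/Wv mice the count was 0, where 5.24% of all genes did so. All HFD arrays lay below all LFD arrays in 3 genes in Cpa3+/+ (Col4a3 -0.79, Col4a4 -0.48 and Col20a1 -0.65, where 15.9% of all genes did so). The same held for 3 other genes in Cpa3Cre/+ (Col4a6 -1.02, Col11a2 -0.44 and Col23a1 -1.31, where 11.5% did so) and for 1 in KitW/Wv (Col25a1 -0.34, where 4.65% did so). None of these 7 differences passed the test. They were named after their values were seen, and Col4a3, Col4a4, Col4a6 and Col23a1 had their highest value on an LFD array with markers of other tissues, described further on. Among the 21 genes detected on all arrays, 18 had a positive difference in both Cpa3+/+ and Cpa3Cre/+, and 9 of 21 had one in KitW/Wv. Col4a5, Col11a2 and Col23a1 were the exceptions, with negative differences in Cpa3Cre/+ (-0.63, -0.44 and -1.31 on the log2 scale, none past the threshold).

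**Figure D2:**
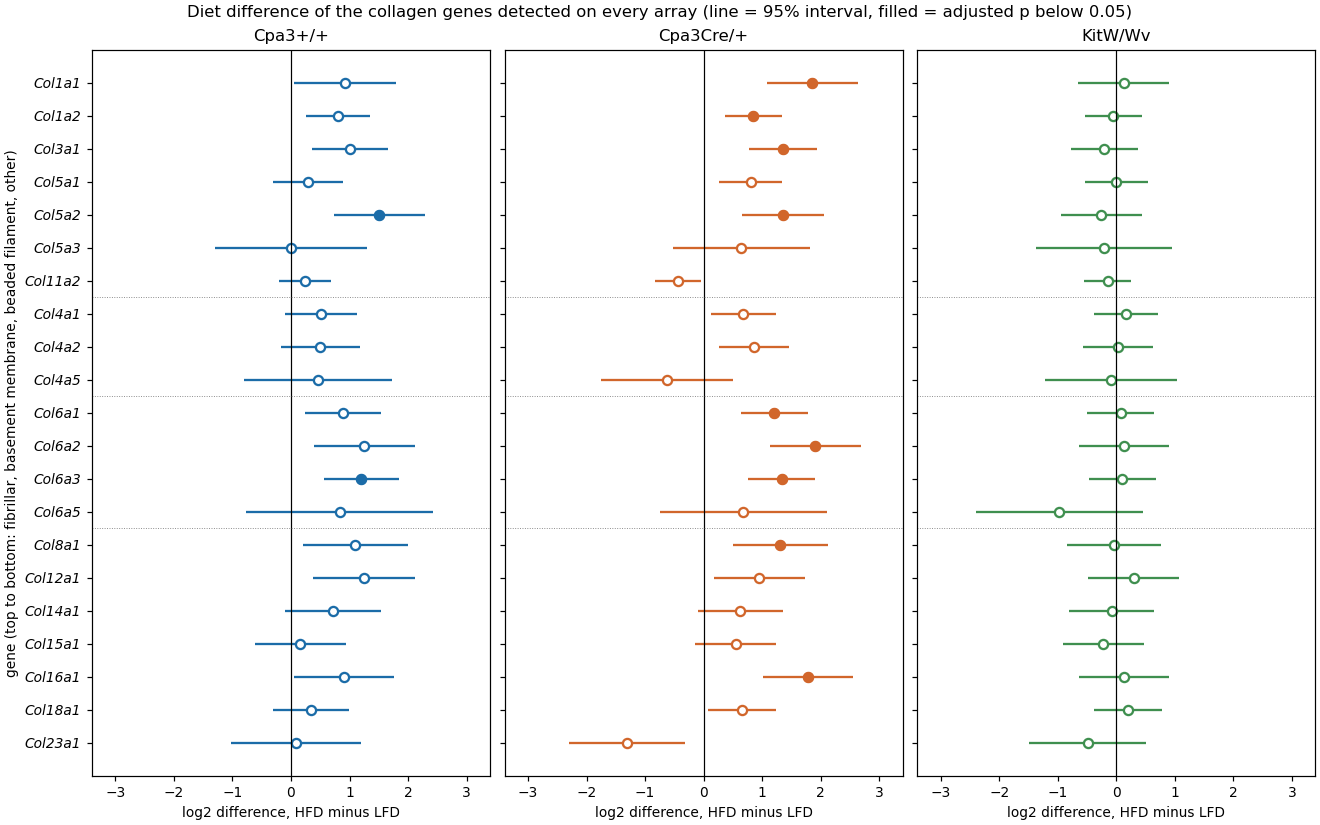
Log2 difference between HFD and LFD (horizontal axis) with its 95% interval for the 21 collagen genes detected on all arrays, in Cpa3+/+, Cpa3Cre/+ and KitW/Wv from left to right, filled where the adjusted p was below 0.05. All 21 points lie above 0 in Cpa3+/+, 18 of 21 in Cpa3Cre/+ and 9 of 21 in KitW/Wv.

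The type I chains Col1a1 and Col1a2 assemble into the most abundant fibrillar collagen. Col1a1 read 9.41, 9.20 and 9.76 on LFD and 10.55 and 10.21 on HFD in Cpa3+/+ mice. In Cpa3Cre/+ mice its values were 9.16, 9.36 and 9.30 on LFD and 10.88, 12.12 and 10.38 on HFD. In KitW/Wv mice they were 9.43, 9.24 and 8.97 on LFD and 8.83, 9.97 and 9.24 on HFD. HFD and LFD arrays were thus apart in the first 2 genotypes and overlapped in KitW/Wv, where array 1 was the lowest of all 17. The rise in Cpa3Cre/+ was 1.86 ± 0.36 (log2 difference ± SE), or 3.62-fold, with an adjusted p of 0.00449 (limma). In Cpa3+/+ the difference of 0.92 ± 0.41 did not pass (adjusted p = 0.258), and in KitW/Wv it was 0.13 with a 95% interval of -0.65 to 0.91.

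Col1a2 read 7.71, 7.78 and 7.95 on LFD against 8.75 and 8.49 on HFD in Cpa3+/+. The Cpa3Cre/+ values were 8.07, 7.91 and 8.18 against 8.86, 9.34 and 8.50. Those of KitW/Wv were 7.91, 7.74 and 7.53 against 7.22, 8.03 and 7.79. Its diet groups were apart in Cpa3+/+ and Cpa3Cre/+ by 0.80 ± 0.25 (adjusted p = 0.0932) and 0.85 ± 0.23 (adjusted p = 0.029), and only the latter passed. In KitW/Wv the groups overlapped, with a difference of -0.05 (-0.54 to 0.43).

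Col3a1 encodes the chain of type III collagen, the partner of type I in soft tissue. Its values in Cpa3+/+ were 8.97, 9.34 and 9.51 on LFD and 10.49 and 10.06 on HFD. In Cpa3Cre/+ they were 9.45, 9.07 and 9.43 on LFD and 10.66, 11.06 and 10.29 on HFD. The KitW/Wv arrays read 9.44, 9.44 and 9.36 on LFD and 8.66, 9.84 and 9.13 on HFD, so that the LFD arrays lay within the HFD range. The rise of 1.35 ± 0.27 in Cpa3Cre/+ passed (2.56-fold, adjusted p = 0.00511), the difference of 1.00 ± 0.30 in Cpa3+/+ did not (adjusted p = 0.0787), and KitW/Wv had -0.20 (-0.78 to 0.37). A dimmer Col3a1 probe, detected on 13 arrays with a mean of 4.84, gave 0.83, -0.04 and 0.15 in the same order, and the mean of both probes did not pass in Cpa3Cre/+.

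Type V chains sit inside type I fibrils and set their width. Col5a2 read 5.77, 5.00 and 5.26 on LFD and 6.86 and 6.84 on HFD in Cpa3+/+, a rise of 1.51 ± 0.36 (2.84-fold, adjusted p = 0.0285). In Cpa3Cre/+ it read 6.12, 4.89 and 5.73 on LFD and 6.98, 7.14 and 6.67 on HFD, a rise of 1.35 ± 0.33 (2.55-fold, adjusted p = 0.0169). In KitW/Wv it read 5.88, 5.53 and 5.78 on LFD and 4.98, 6.19 and 5.26 on HFD, a difference of -0.25 (-0.95 to 0.44). Col5a2 was therefore the fibrillar gene that passed in both genotypes with normal Kit. Over its 3 probes the differences in Cpa3+/+ ranged from 0.52 to 1.51, and the mean of the probes did not pass there.

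Col5a1, the other main type V chain, was named for its bright probe and did not pass in any comparison. It read 11.10, 10.36 and 10.73 on LFD and 10.99 and 11.05 on HFD in Cpa3+/+, with overlapping groups. The Cpa3Cre/+ arrays read 11.08, 10.18 and 10.61 on LFD and 11.37, 11.82 and 11.08 on HFD, a difference of 0.80 ± 0.25 (adjusted p = 0.0636). The KitW/Wv arrays lay between 10.37 and 10.89 on both diets. The other fibrillar genes, Col2a1, Col5a3, Col11a1, Col11a2, Col24a1 and Col27a1, had differences that did not pass under any diet comparison. Of them only Col5a3 and Col11a2 were detected on all arrays, and Col5a3 had a wide spread within groups (6.27 to 8.87 among the 3 Cpa3Cre/+ LFD arrays).

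Type VI collagen is a trimer of α1, α2 and another chain, most often α3. Col6a1 read 12.06, 11.33 and 12.26 on LFD and 12.80 and 12.75 on HFD in Cpa3+/+. Cpa3Cre/+ mice had 12.46, 11.68 and 11.97 on LFD and 13.22, 13.64 and 12.87 on HFD. The KitW/Wv arrays read 12.14, 12.12 and 12.11 on LFD and 12.10, 12.58 and 11.92 on HFD. Its diet groups did not overlap in Cpa3+/+ (0.89 ± 0.30, adjusted p = 0.121) or in Cpa3Cre/+ (1.21 ± 0.27, 2.31-fold, adjusted p = 0.0101), and in KitW/Wv the difference was 0.08 (-0.50 to 0.65).

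Col6a2 encodes α2 and read 9.75, 9.12 and 9.98 on LFD and 10.88 and 10.87 on HFD in Cpa3+/+. In Cpa3Cre/+ it read 10.38, 9.18 and 9.66 on LFD and 11.37, 12.51 and 11.06 on HFD. KitW/Wv mice had 9.95, 9.90 and 9.70 on LFD and 10.12, 10.25 and 9.56 on HFD. The rise in Cpa3Cre/+ was 1.91 ± 0.36 or 3.75-fold (adjusted p = 0.00353), beside 1.25 ± 0.40 in Cpa3+/+ (adjusted p = 0.101) and 0.13 (-0.65 to 0.90) in KitW/Wv.

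Col6a3 encodes α3, whose cleaved end is the peptide endotrophin. It read 10.41, 10.21 and 11.04 on LFD and 11.86 and 11.65 on HFD in Cpa3+/+, a rise of 1.20 ± 0.30 (2.30-fold, adjusted p = 0.0325). The Cpa3Cre/+ arrays read 10.99, 10.55 and 10.86 on LFD and 12.14, 12.64 and 11.62 on HFD, a rise of 1.34 ± 0.27 (2.52-fold, adjusted p = 0.00527). In KitW/Wv it read 10.80, 10.65 and 10.56 on LFD and 10.68, 11.17 and 10.48 on HFD, a difference of 0.10 (-0.47 to 0.67). Together with Col5a2 it was 1 of 2 genes that passed in both genotypes with normal Kit, 2 of the 2 called in Cpa3+/+ and 2 of the 9 called in Cpa3Cre/+. Its dimmer probes gave as little as -0.22 in Cpa3Cre/+, and the mean of its 3 probes did not pass there. Col6a5, a chain that can take the place of α3, spread from 6.75 to 10.06 over the arrays and did not pass (0.83, 0.68 and -0.98 in the 3 genotypes).

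Among the other types, Col8a1 and Col16a1 passed. Col8a1, a network-forming chain made by vascular and stromal cells, read 6.27, 6.45 and 6.48 on LFD and 7.84 and 7.16 on HFD in Cpa3+/+. Cpa3Cre/+ mice had 7.30, 7.05 and 6.82 on LFD and 8.40, 8.88 and 7.83 on HFD, a rise of 1.31 ± 0.38 (2.48-fold, adjusted p = 0.0427). The KitW/Wv arrays read 7.47, 5.94 and 6.46 on LFD and 6.20, 7.25 and 6.28 on HFD, a difference of -0.04 (-0.85 to 0.76). The groups were apart in Cpa3+/+ too, by 1.10 ± 0.42, which did not pass (adjusted p = 0.18).

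Col16a1, a fibril-associated chain, read 8.87, 7.86 and 9.44 on LFD and 9.65 and 9.60 on HFD in Cpa3+/+. In Cpa3Cre/+ it read 8.53, 8.95 and 7.80 on LFD and 10.01, 10.71 and 9.91 on HFD. KitW/Wv mice had 8.65, 8.30 and 8.84 on LFD and 8.89, 8.57 and 8.74 on HFD. It rose by 1.78 ± 0.36 in Cpa3Cre/+ (3.44-fold, adjusted p = 0.0055), while 0.90 ± 0.40 in Cpa3+/+ did not pass (adjusted p = 0.263) and KitW/Wv had 0.14 (-0.63 to 0.91). Col12a1, which coats fibrils as well, had diet groups apart in both genotypes with normal Kit (1.25 ± 0.40 and 0.95 ± 0.36) and did not pass in either.

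**Figure D3:**
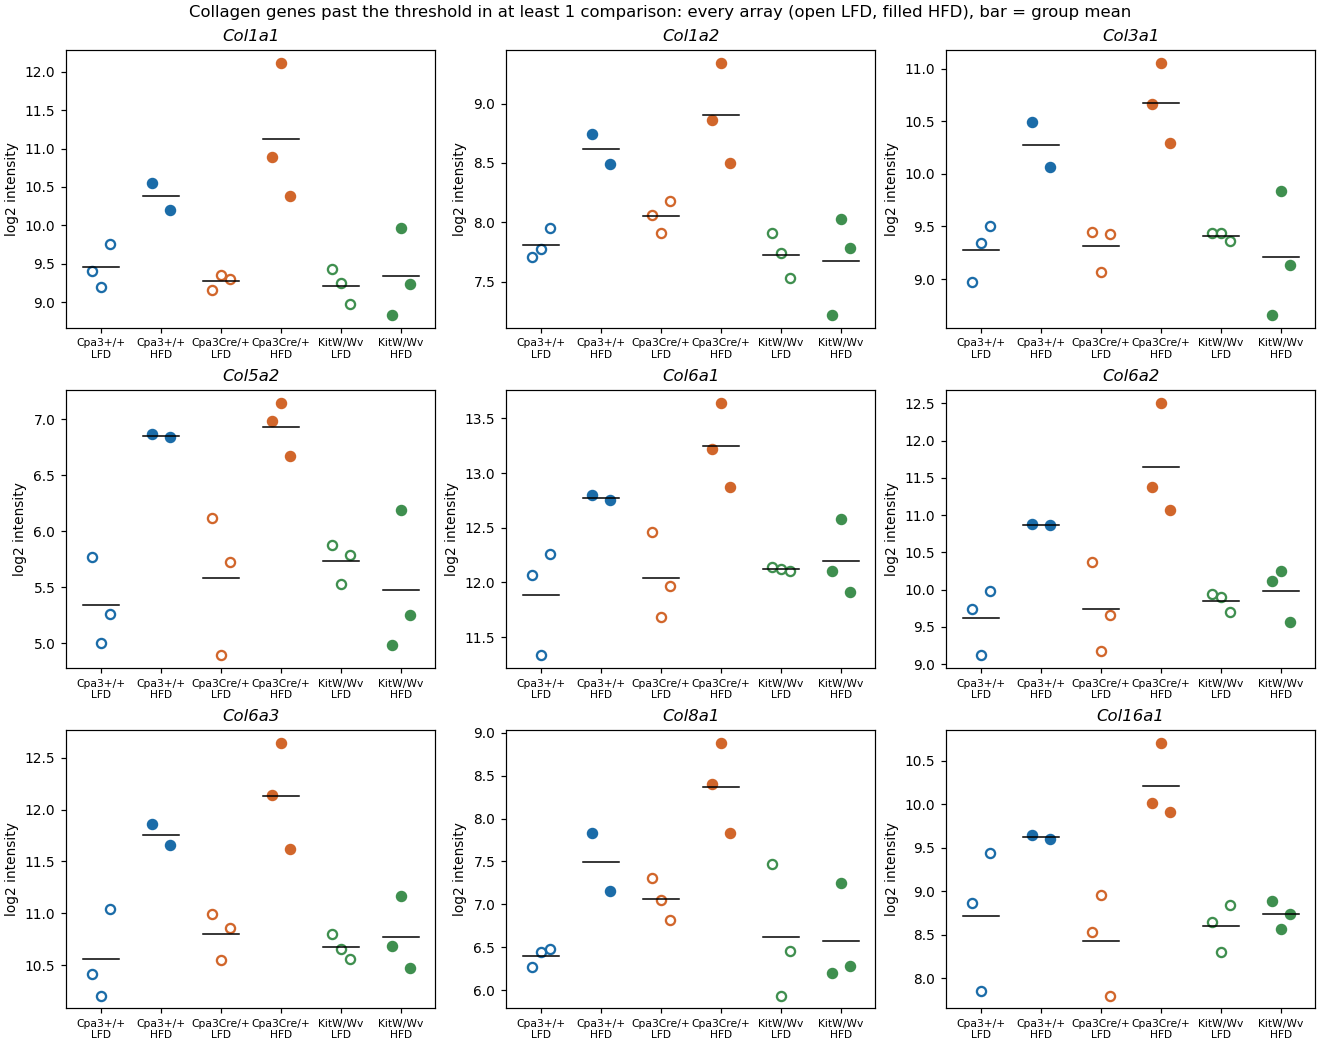
Log2 intensity (vertical axis) of the 9 collagen genes that passed in at least 1 comparison, on every array of the 6 groups (horizontal axis, LFD open, HFD filled, bar at the group mean). In Cpa3+/+ and Cpa3Cre/+ every HFD array lies above every LFD array in all 9 genes, and in KitW/Wv the diets overlap in all 9. All 9 passed for diet in Cpa3Cre/+, so their separation there is no separate evidence.

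None of the 6 basement membrane chains passed the test for diet. Col4a1 and Col4a2, which pair in nearly all basement membranes and are made from neighbouring genes, did not pass in any comparison. Col4a1 read 13.15, 12.47 and 12.54 on LFD and 13.15 and 13.31 on HFD in Cpa3+/+. The Cpa3Cre/+ arrays read 13.14, 12.32 and 12.69 on LFD and 13.43, 13.71 and 13.04 on HFD. In KitW/Wv it read 12.96, 12.80 and 12.42 on LFD and 12.79, 13.24 and 12.65 on HFD. The groups overlapped in all 3 genotypes, with differences of 0.51 ± 0.29, 0.68 ± 0.26 and 0.17 ± 0.26 in the order Cpa3+/+, Cpa3Cre/+ and KitW/Wv (adjusted p = 0.398, 0.13 and 1).

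Col4a2 read 12.60, 11.92 and 12.34 on LFD and 12.82 and 12.76 on HFD in Cpa3+/+. Cpa3Cre/+ mice had 12.67, 11.70 and 12.19 on LFD and 12.90, 13.48 and 12.75 on HFD. The KitW/Wv arrays read 12.51, 12.21 and 11.90 on LFD and 11.98, 12.65 and 12.07 on HFD. The groups were apart in the first 2 genotypes, by 0.50 ± 0.31 and 0.85 ± 0.28 (adjusted p = 0.452 and 0.0768), and overlapped in KitW/Wv. Col4a5 and Col4a6, the X-linked pair found in kidney, skin and smooth muscle basement membranes, did not pass and are described with the arrays that stood apart. Col4a3 and Col4a4, the pair of the kidney filter, were detected on 8 and 13 arrays and did not pass.

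Col15a1 and Col18a1 encode basement membrane zone collagens, and the end of Col18a1 yields endostatin. Col15a1 read 11.51, 10.68 and 11.00 on LFD and 11.20 and 11.25 on HFD in Cpa3+/+. Its values in Cpa3Cre/+ were 11.98, 10.71 and 11.05 on LFD and 11.65, 12.46 and 11.26 on HFD, and the KitW/Wv arrays lay between 10.86 and 11.34. Col18a1 read 11.43, 10.53 and 11.03 against 11.36 and 11.32 in Cpa3+/+, 11.41, 11.10 and 10.57 against 11.64, 12.16 and 11.25 in Cpa3Cre/+, and 10.68 to 11.18 in KitW/Wv. The diet groups overlapped for both genes in all 3 genotypes, and no diet difference passed, the largest being 0.65 ± 0.27 for Col18a1 in Cpa3Cre/+ (adjusted p = 0.172).

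By class, 1 of 11 fibrillar, 1 of 4 beaded filament, 0 of 6 basement membrane and 0 of 16 other genes rose in Cpa3+/+, where 3.44% of all genes rose. In Cpa3Cre/+ the counts were 4 of 11, 3 of 4, 0 of 6 and 2 of 16, where 5.88% of all genes rose. In classes this small a count of 0 is near these shares. The median differences in Cpa3+/+ were 0.24, 1.05, 0.17 and 0.17 in the same order. In Cpa3Cre/+ they were 0.65, 1.27, -0.11 and 0.45, and in KitW/Wv -0.10, 0.09, -0.04 and -0.04. These medians include genes close to background. The 21 genes detected on all arrays had medians of 0.80, 0.85 and -0.04 in the 3 genotypes. Differences between the classes were not tested.

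The calls in Cpa3+/+ rested on few arrays. Without HFD array 1, HFD array 2 or LFD array 2 the count fell to 0, without LFD array 1 it was 1, and without LFD array 3 it was 2. Col5a2 and Col6a3 each kept their call in 1 of these 5 cases. In a fit of the Cpa3+/+ arrays alone the count was 0.

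In Cpa3Cre/+ mice HFD array 2 was the highest of all 17 arrays in 18 of the 37 genes, in 17 of the 21 detected on all arrays and in all 9 that passed. The 9 passed through this group, so their high values in it follow from the choice. Its mean deviation over the 9 genes was 1.65, beside 1.04 and 0.66 on the other Cpa3Cre/+ HFD arrays and 0.72 and 0.49 on the Cpa3+/+ HFD arrays. Over the 21 genes the values were 1.14, 0.58, 0.28, 0.53 and 0.35 in the same order. Without array 2, 5 genes rose in Cpa3Cre/+ (Col1a1, Col3a1, Col6a2, Col6a3 and Col16a1) with differences of 1.36, 1.16, 1.48, 1.08 and 1.53. Col1a2, Col5a2, Col6a1 and Col8a1 then had 0.63, 1.24, 1.01 and 1.06 with adjusted p-values of 0.141, 0.0753, 0.0593 and 0.184. Array 2 was also the highest of all 17 arrays in the mean deviation of the matrix (0.54), collagen processing (0.47), stromal progenitor (0.41) and TGF-beta (0.34) lists. The mean deviation of macrophage genes was 1.96 there and 1.83 and 1.80 on the other arrays of its group. The part of these lists in its collagen values was not tested. Leaving out any other array of the comparison gave 6 to 10 genes. Over all 6 such fits Col1a2 and Col8a1 kept their call in 1 and Col5a2 in 3. In a fit of the Cpa3Cre/+ arrays alone 3 genes rose (Col3a1, Col6a3 and Col16a1).

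On HFD, KitW/Wv mice had lower levels than Cpa3Cre/+ mice of the same 9 genes that had risen in Cpa3Cre/+. The comparison shares the Cpa3Cre/+ HFD arrays with the diet comparison, so that the agreement is no separate evidence. All 9 fell and 0 rose, where 4.86% of all genes fell, and in 15 of the 37 genes every KitW/Wv array lay below every Cpa3Cre/+ array, where 14.5% of all genes did so. In 1 gene, Col4a6, every KitW/Wv array lay above, where 14.5% of all genes did so, and it did not pass. The differences of the 9 ranged from -1.05 (Col6a1, 2.07-fold lower, adjusted p = 0.0269) to -1.79 (Col8a1, 3.46-fold lower, adjusted p = 0.00898). Col1a1 was 3.44-fold lower (-1.78 ± 0.36, adjusted p = 0.00712), Col3a1 2.75-fold lower (-1.46 ± 0.27, adjusted p = 0.00384) and Col6a2 3.18-fold lower (-1.67 ± 0.36, adjusted p = 0.0104). Without Cpa3Cre/+ HFD array 2 the count was 4 (Col1a1, Col1a2, Col3a1 and Col6a3), and without KitW/Wv HFD array 3 it was 5. Among the dimmer probes of Col6a3 the difference reached 0.35 in the opposite direction, and the mean of its probes did not pass here either.

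Against Cpa3+/+ mice on HFD the KitW/Wv levels were lower in 29 of 37 genes, and in all 21 of those detected on every array, but 0 passed, where 1.77% of all genes were called lower. Every KitW/Wv array lay below both Cpa3+/+ arrays in 18 of the 37 genes, where 3147 of all 17166 genes did so, a smaller share. Every KitW/Wv array lay above them in 2, where 3325 of all 17166 genes did so, a larger share. The median was -0.44, beside 0.01 over all genes. An unadjusted p below 0.05 was found in 9 of the 37 genes, where 2485 of 17166 genes had one. Col5a2 came nearest with -1.38 ± 0.36 (adjusted p = 0.0675), followed by Col1a2 with -0.94 ± 0.25 (adjusted p = 0.0718) and Col3a1 with -1.07 ± 0.30 (adjusted p = 0.0847). Without KitW/Wv HFD array 2, the highest of its group in 8 of the 9 genes of the plot of called genes, 2 genes passed. Cpa3Cre/+ and Cpa3+/+ mice on HFD differed in 0 of the 37 genes, where 0.0408% of all genes were called in either direction. The unadjusted p was below 0.05 in 1 gene (Col9a2, 0.85 ± 0.32, adjusted p = 0.98), where 834 of 17166 genes had one. Here the 95% intervals were wide, from -0.12 to 1.62 for Col1a1.

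The difference between diet effects was tested directly. The diet effect in KitW/Wv minus that in Cpa3Cre/+ was below 0 in 26 of 37 genes with a median of -0.45, and Col3a1 passed (-1.56 ± 0.38, adjusted p = 0.0445), a share near the 2.09% of all genes called lower. With Col3a1, 10 of the 37 genes had an unadjusted p below 0.05, where 2226 of 17166 genes did. Among the others were Col6a2 (-1.78 ± 0.51, adjusted p = 0.0918) and Col5a2 (-1.61 ± 0.46, adjusted p = 0.0935). The call of Col3a1 was kept in 2 of 12 fits that left out 1 array of these groups, its dimmer probe gave 0.19, and the mean of both probes did not pass. Against Cpa3+/+ the diet effect in KitW/Wv was below 0 in 28 of 37 genes with a median of -0.48, and 0 passed, where 0.798% of all genes were called lower. Of the 37 genes, 4 had an unadjusted p below 0.05, a share near that over all genes (2030 of 17166). Col5a2 was the largest of the 4 with -1.76 ± 0.49 (adjusted p = 0.13). The diet effects of Cpa3Cre/+ and Cpa3+/+ did not differ past the threshold in any of the 37 genes, as in 0% of all genes. The unadjusted p was below 0.05 in 1 gene (Col11a2), where 686 of 17166 genes had one.

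On LFD no genotype difference passed in any collagen gene. The counts were 0 of 37 for Cpa3Cre/+ against Cpa3+/+ (0.035% of all genes), 0 for KitW/Wv against Cpa3+/+ (0.0466%) and 0 for KitW/Wv against Cpa3Cre/+ (0%). The medians were 0.12, -0.01 and -0.06, and 2, 1 and 0 genes had an unadjusted p below 0.05. Over all 17166 genes 595, 887 and 773 had one. For Col6a3 the LFD means were 10.56 ± 0.44 in Cpa3+/+, 10.80 ± 0.23 in Cpa3Cre/+ and 10.67 ± 0.12 in KitW/Wv (SD, n = 3 each), within each other's spread. The KitW/Wv HFD mean of 10.78 ± 0.36 (SD, n = 3) lay among them, below 11.76 ± 0.15 (SD, n = 2) in Cpa3+/+ and 12.13 ± 0.51 (SD, n = 3) in Cpa3Cre/+ on HFD.

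Some collagen genes were high on arrays that also carried markers of other tissues. On Cpa3+/+ LFD array 3 all 5 measured genes of the epididymis and testis list were detected, with a mean of 7.51, while the other 16 arrays had means of 4.26 to 4.81. Of the cartilage list 1 to 3 of 3 measured genes were detected on the arrays of this group, and the mean of 6.47 on array 3 was the highest of all arrays. Col8a2 (7.83, next highest array 6.28), Col4a3 (5.78, next 5.04) and Col4a4 (6.01, next 5.30) had their highest value on this array, as did Col25a1 and Col27a1 by under 0.1. On Cpa3Cre/+ LFD array 2 the 4 smooth muscle genes had a mean of 11.31, beside 7.45 to 9.71 on all other arrays. All 4 were detected there, and also on Cpa3+/+ LFD arrays 1 and 3 and on KitW/Wv LFD array 3, which had the 9.71. Col4a5 (8.29, next 7.93), Col4a6 (6.56, next 5.77), Col23a1 (8.20, next 7.02), Col26a1 (5.97, next 5.18) and Col17a1 (5.45, next 5.15) were highest on Cpa3Cre/+ LFD array 2. On the same array 6 genes including Col4a1, Col4a2, Col5a1 and Col5a2 were lowest. The skeletal muscle list reached its highest mean, 7.44, on KitW/Wv HFD array 1, where 6 collagen genes including Col1a1, Col1a2 and Col3a1 were lowest. Its next highest mean, 7.10, was on Cpa3Cre/+ LFD array 2. That array also had the highest mean of the mesothelial list (9.15) and the lowest of the adipocyte list (11.18). The part of these markers in the collagen values was not tested. An alternative chosen after seeing the data left out Cpa3+/+ LFD array 3, Cpa3Cre/+ LFD array 2 and KitW/Wv HFD array 1 together. Without these 3 arrays 4 collagen genes rose in Cpa3+/+, 6 rose in Cpa3Cre/+ and 0 passed in KitW/Wv. In KitW/Wv against Cpa3Cre/+ on HFD 8 fell, and 1 gene other than Col3a1 passed in the interaction of these genotypes. Calls over all genes were not counted in this fit, so its counts have no share beside them.

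Of 24 measured gene symbols for collagen processing, 5 rose and 0 fell on HFD in Cpa3+/+, 7 rose and 0 fell in Cpa3Cre/+ and 0 passed in KitW/Wv. The medians were 0.49, 0.37 and -0.07. Over all genes 3.44% and 5.88% rose in the first 2 genotypes, and 0.00583% passed in either direction in KitW/Wv. The same shares apply to the diet counts of all lists that follow. The symbols Leprel1 and P3h2, which did not pass by diet, name the same gene and were counted apart. The 5 were Serpinh1, the collagen chaperone (0.73 ± 0.17 in Cpa3+/+ and 0.72 ± 0.16 in Cpa3Cre/+), Bmp1, which cuts the procollagen tail (0.65 ± 0.16 and 0.96 ± 0.14), its enhancers Pcolce (1.21 ± 0.28 and 1.40 ± 0.25) and Pcolce2 (1.97 ± 0.30 and 1.46 ± 0.27), and the crosslinking enzyme Lox (1.22 ± 0.30 and 1.46 ± 0.27). In Cpa3Cre/+ Loxl1, another crosslinker (0.95 ± 0.19), and Colgalt1, which adds galactose to collagen (1.05 ± 0.19), rose as well. On HFD 7 of the 24 were lower in KitW/Wv than in Cpa3Cre/+ (4.86% of all genes), and Bmp1 (-0.87 ± 0.16) and Pcolce2 (-1.64 ± 0.30) were lower than in Cpa3+/+ (1.77% of all genes). The diet effect in KitW/Wv was smaller than in Cpa3Cre/+ for Serpinh1 (-1.02 ± 0.22, adjusted p = 0.0209) and Bmp1 (-1.13 ± 0.20, adjusted p = 0.00692), where 2.09% of all genes were called lower. It was smaller than in Cpa3+/+ for Pcolce2 (-1.91 ± 0.41, adjusted p = 0.0421), where 0.798% of all genes were called lower.

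Of 22 other matrix genes, 3 rose in Cpa3+/+, 4 in Cpa3Cre/+ and 0 in KitW/Wv, and 0 fell. The fibril-binding proteoglycans Bgn (1.29 ± 0.29 and 1.11 ± 0.26) and Lum (1.85 ± 0.36 and 1.38 ± 0.32) and the microfibril protein gene Mfap5 (1.62 ± 0.36 and 1.59 ± 0.32) rose in both genotypes with normal Kit, and Postn, a matricellular protein, rose in Cpa3Cre/+ (1.55 ± 0.38). Of 11 collagen receptor genes 0 passed by diet in any genotype, with medians of 0.27, 0.24 and 0.14. Of 13 genes of the TGF-beta axis, which drives collagen synthesis in fibroblasts, 1 rose in Cpa3+/+ and 3 in Cpa3Cre/+. Tgfb1 rose in Cpa3+/+ (1.02 ± 0.23) and in Cpa3Cre/+ (1.57 ± 0.21), and the receptors Tgfbr1 (0.84 ± 0.23) and Tgfbr2 (0.52 ± 0.13) rose in Cpa3Cre/+. In KitW/Wv 0 of 13 passed, and the diet effect on Tgfb1 was smaller there than in Cpa3Cre/+ (-1.49 ± 0.29, adjusted p = 0.011), where 2.09% of all genes were called lower.

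Of 6 measured macrophage markers 5 rose in Cpa3+/+ (median 2.01), 6 rose in Cpa3Cre/+ (median 2.61) and 0 passed in KitW/Wv (median 0.09). On HFD 4 were lower in KitW/Wv than in Cpa3+/+ and 6 lower than in Cpa3Cre/+, and the diet effect was smaller in KitW/Wv for 4 and 6 of them, where 0, 9, 0 and 1 of the 37 collagen genes were called. Over all genes 1.77%, 4.86%, 0.798% and 2.09% were called lower, in the same order. The list's mean per array was 7.69 to 8.02 on LFD and 9.97 to 10.08 on HFD in Cpa3+/+, 7.60 to 8.13 and 10.57 to 10.73 in Cpa3Cre/+, and 8.18 to 8.25 and 8.43 to 8.53 in KitW/Wv. Of the stromal progenitor list, the cells that make most collagen in fat, 0 of 7 passed by diet in any genotype (medians 0.42, 0.17 and 0.10). From this list Cd34 was lower in KitW/Wv than in Cpa3Cre/+ on HFD (-0.79 ± 0.21, adjusted p = 0.0327), where 4.86% of all genes were lower. Of 6 endothelial genes 0 passed by diet, and of 8 adipocyte genes Lep rose in Cpa3+/+ (1.74 ± 0.43) and Cpa3Cre/+ (1.89 ± 0.38) while Retn fell in Cpa3Cre/+ (-1.49 ± 0.27). The part of these cell types in the collagen differences was not tested.

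**Figure D4:**
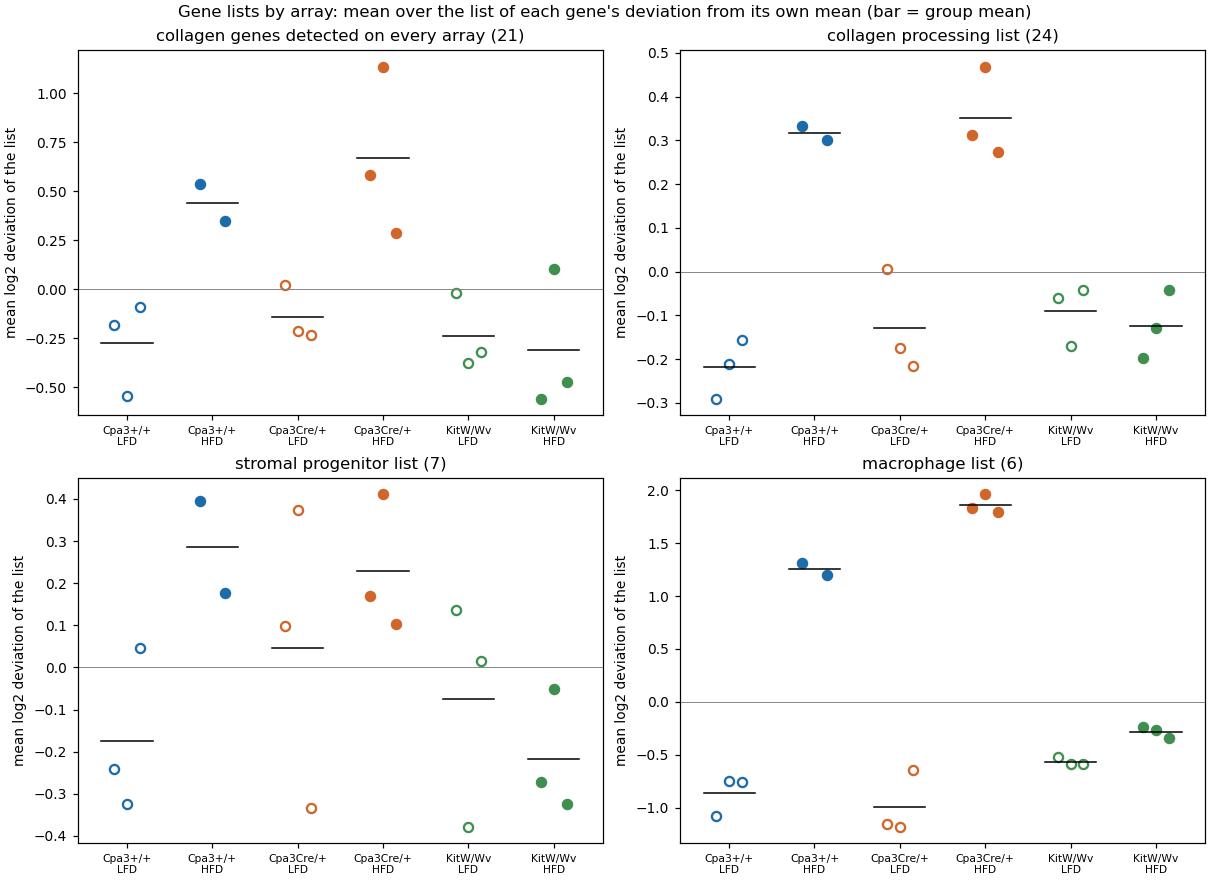
Mean log2 deviation per array (vertical axis) of the 21 collagen genes detected on all arrays and of the collagen processing, stromal progenitor and macrophage lists, by group (LFD open, HFD filled, bar at the group mean). The Cpa3+/+ and Cpa3Cre/+ HFD arrays lie above all other arrays for collagen, collagen processing and macrophage genes, and stromal progenitor genes overlap between groups.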

How the data were processed

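RNA of 17 epididymal fat samples was measured on Illumina bead arrays of 46237 probes. Per the submitters' processing notes the authors used GenomeStudio (version not stated). The values deposited without normalization are linear intensities, and the deposited detection p-value beside each, per the file headers, scores a probe against background by a method that they do not state. The authors' normalized values served as an alternative, made by steps not given in the sources used here.

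Intensities were corrected for background with neqc, which estimated it from the detection p-values (offset 16), set to equal quantiles and expressed as log2 values (limma 3.58.1, R 4.3.3), starting from the values as deposited. A probe was kept with detection p below 0.05 on at least 2 arrays, which left 25594 probes and 17166 genes, and the brightest probe stood for its gene. A probe with the symbol written in lower case (1 probe) was left out. All 17 arrays entered a linear model of the 6 group means (lmFit and eBayes, 11 residual degrees of freedom), with 12 comparisons. P-values were two-sided and adjusted by Benjamini-Hochberg over all genes, with 0.05 as the threshold. The number of arrays, 2 or 3 per group, limits the precision. The procedure was tested on simulated data.

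Array values are given for genes past the threshold in any comparison and for the 2 brightest of each class, others by range and count. The members and lists were chosen with earlier results of these data known. Alternatives were other background correction, scaling, filter, probe rule, variance prior, array weights, the replicate block, fits of the compared groups alone, leaving out each array, and, chosen after seeing the data, leaving out 3 arrays together. Promoter sequences and gene starts came from RefSeq (GRCm38.p6). Figures were drawn with matplotlib 3.10.9 in Python 3.11.15.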

Additional observations from a re-analysis of the deposited data

Results flagged for a closer look

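The diet effect on Col3a1 differed between genotypes in a direct test of the difference. The diet difference in KitW/Wv minus that in Cpa3Cre/+ was -1.56 ± 0.38 (log2 ± SE; limma, adjusted p = 0.0445). The difference was -0.20 in KitW/Wv and 1.35 in Cpa3Cre/+, where all 3 HFD arrays lay above all 3 LFD arrays. It was 1 of 37 collagen genes called lower, a share near the 2.09% of all genes. The call was kept in 2 of 12 fits that left out 1 array, and was lost with no detection filter, the mean of probes, the replicate block and only the groups compared. Without Cpa3Cre/+ HFD array 2 the value was -1.36 (adjusted p = 0.125), and its dimmer probe gave 0.19.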

How the results depend on the processing

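Under the alternatives no collagen result changed direction past the threshold, and the counts of genes called were 0 throughout for diet in KitW/Wv, for all genotype comparisons on LFD, for Cpa3Cre/+ against Cpa3+/+ on HFD and for the interaction of those genotypes. The diet count in Cpa3+/+ (2 genes) was 0 with the replicate block, 0 with only the groups compared, 4 without the 3 arrays high in other tissues' markers (chosen after seeing the data) and 0 to 2 when 1 array was left out. The diet count in Cpa3Cre/+ (9) was 3 with only the groups compared and 5 to 10 when 1 array was left out. The count of KitW/Wv against Cpa3Cre/+ on HFD (9) was 4 to 10 when 1 array was left out. The count of KitW/Wv against Cpa3+/+ on HFD (0) was 1 with no background correction, 1 with the authors' normalized values, 4 with array weights, 1 with only the groups compared and 0 to 2 when 1 array was left out. The interaction of KitW/Wv with Cpa3+/+ (0) was 1 with array weights. The interaction of KitW/Wv with Cpa3Cre/+ (1) was 2 with the authors' normalized values, 0 without the detection filter, 0 with the replicate block, 5 with array weights, 0 with only the groups compared and 0 to 4 when 1 array was left out (2 without KitW/Wv HFD array 2 or Cpa3Cre/+ LFD array 1, 4 without Cpa3Cre/+ HFD array 3, 0 without 9 of the 12 arrays). Fits of the compared groups alone and those without an array hold fewer samples, and the cause of the other changes was not tested. Among these alternatives, calls over all genes were counted only without Cpa3Cre/+ HFD array 2. The other counts have no share over all genes beside them. Same-numbered samples of different groups deviated together in some pairs and not in others (r of -0.47 to 0.36 over 40 pairs, 16 of them over 0.1, and 7 of 17 arrays closest to their own number). Deviations from the mean of 2 or 3 arrays are tied to each other, so these values cannot decide whether the numbers pair the samples. The replicate block left the diet count in Cpa3Cre/+ and the count of KitW/Wv against Cpa3Cre/+ on HFD at 9. It took the diet count in Cpa3+/+ and the interaction of KitW/Wv with Cpa3Cre/+ to 0.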
